A study of Mus musculus with 22 samples.

Results

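The change in the mouse ovary from embryonic day 17 (E17), when germ cells are in cysts and in meiotic prophase, to postnatal day 3 (P3), when most of those that survive have entered follicles, was read from 4 of the 22 libraries of an age series. The 2 P3 libraries were set against the 2 E17 libraries over 16117 of the 34745 genes in the deposited table, those with at least 1 FPKM in at least 2 of the 22 libraries. FPKM is a level per gene counted in fragments, corrected for the length of the transcript and for the size of the library. All ovaries were wild type and from CD1 mice, an outbred stock, and were taken whole, frozen and sequenced in bulk at 11 ages from E13 to 2 years. The 2 libraries of the day of birth (P0) lie between the ages compared. They are given only as values, because their blood transcripts differed from each other.

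In the fetal ovary of the mouse, oogonia divide without complete separation, form cysts joined by bridges and enter meiosis together. Homologous chromosomes are then held in register by the synaptonemal complex while recombination takes place, and around birth the oocytes leave this stage and arrest in diplotene. Over the same days the cysts break apart, many germ cells die, and each surviving oocyte is enclosed by flat pre-granulosa cells as a primordial follicle, while the follicles of the first wave, in the medulla, begin to grow at once.

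At P3, 2350 genes were higher than at E17 (14.6%) and 2701 were lower (16.8%), together 31.3% of the genes tested (limma on log2(FPKM + 1), Benjamini-Hochberg adjusted p under 0.05). Differences of at least 1 on the log2(FPKM + 1) scale were found in 729 higher and 548 lower genes, and of at least 3 in 54 and 44. Without P3 replicate 1, 1689 genes were called lower, and with only the 4 compared libraries in the fit 1609. With a pseudocount of 0.1 FPKM in place of 1, 2175 genes differed by at least 1. The P3 libraries did not overlap the E17 libraries for 67.1% of the genes tested, so non-overlap by itself was common. The median difference over all genes tested was -0.03. Every difference below is P3 minus E17 on the log2(FPKM + 1) scale, where the change of a gene expressed below about 1 FPKM comes out too small.

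The P3 libraries held an estimated 15170000 and 16750000 reads and the E17 libraries 13490000 and 13040000, so that a 1 kb transcript at 1 FPKM rests on 13.04 to 16.8 reads. Levels correlated across genes between replicates with r = 0.989 at P3 and 0.983 at E17. Whether 2 libraries of the same age are from different animals is not stated in the labels, and the p-values therefore cover only the spread between these samples, possibly a technical one. E17 values carry fewer decimals in the table than P3 values, and the sources used here do not say if fetal and postnatal libraries were quantified together, so a quantification difference and age cannot be told apart. In bulk RNA, fewer cells of a type and less RNA per cell cannot be told apart. All 4 defining germ cell markers (Ddx4, Dazl, Mael, Kit) were present at both ages. Dazl and Mael fell most, with Mael, a piRNA pathway gene, at 46.9 and 59.1 FPKM at P3 and 145.4 and 106 at E17, and Dazl is given with the meiotic genes. Ddx4, a germ cell helicase, was at 29.5 and 32.7 FPKM at P3 and 55.7 and 51.9 at E17 (difference -0.77). The receptor gene Kit was at 21.6 and 24.7 FPKM at P3 and 22.6 and 19.1 at E17, and did not pass the test. Testis markers were low (Sox9 at 1.61 and 1.97 FPKM at P3, 1.72 and 1.93 at E17), and Ddx3y, Eif2s3y and Uty of the Y chromosome were listed at 0 in all 4 libraries.

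**Figure D1:**
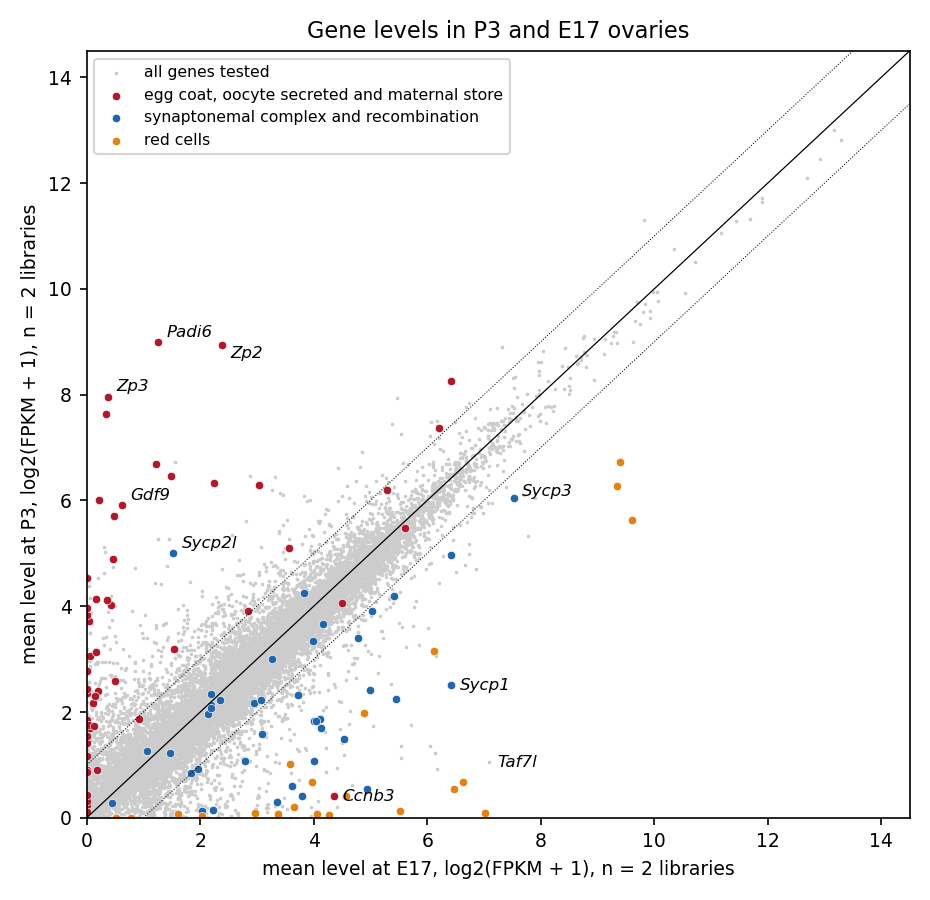
Mean level of each of the 16117 genes tested at P3 (vertical) and at E17 (horizontal), both as log2(FPKM + 1) over 2 libraries. The solid line marks equal levels and the dotted lines a difference of 1. Most genes of the egg coat, the oocyte secreted factors and the maternal store (red) lie above the line, many of them far above. Genes of the synaptonemal complex and of recombination (blue) lie mostly below it, and red cell genes (orange) below it. Ccnb3 is the red point far below the line and Sycp2l the blue point far above it.

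The largest movements were those of the 2 programmes of the germ cell. Promoter sequence of 3 of the 12 genes with the largest increases (Padi6, Zp3, Ooep) and of 3 meiotic genes that fell (Sycp1, Stag3, Taf7l) is shown here, because both groups have known regulators that bind short sites near the start of the gene. Nlrp14, Zp2, Zp1, Npm2, Gdf9, Khdc1b and Rps2-ps10, which rose more than Ooep, are not shown. The meiotic genes shown were not chosen by size of change, and Syce3 and Rad21l, which fell more than Stag3, are not shown either. The windows run from 250 bases before to 50 bases after the annotated start, read 5′ to 3′ on the gene's strand (RefSeq, GRCm38.p6). Capitals mark the E-box, CANNTG, the general site of bHLH factors such as FIGLA, SOHLH1 and SOHLH2 in the oocyte.
Padi6, chr4:140742594-140742893, minus strand: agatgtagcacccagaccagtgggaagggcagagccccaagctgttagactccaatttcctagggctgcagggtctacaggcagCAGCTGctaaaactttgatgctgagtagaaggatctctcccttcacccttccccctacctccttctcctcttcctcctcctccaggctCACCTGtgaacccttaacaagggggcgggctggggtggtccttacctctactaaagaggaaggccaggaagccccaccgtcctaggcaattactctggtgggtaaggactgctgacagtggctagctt
Zp3, chr5:135979855-135980154, plus strand: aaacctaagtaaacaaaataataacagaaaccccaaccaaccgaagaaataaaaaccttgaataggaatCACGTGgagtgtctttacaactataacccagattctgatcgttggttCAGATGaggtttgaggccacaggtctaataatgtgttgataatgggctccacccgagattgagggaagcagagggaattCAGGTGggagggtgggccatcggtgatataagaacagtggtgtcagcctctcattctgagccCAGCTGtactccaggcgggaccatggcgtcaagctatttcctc
Ooep, chr9:78378539-78378838, minus strand: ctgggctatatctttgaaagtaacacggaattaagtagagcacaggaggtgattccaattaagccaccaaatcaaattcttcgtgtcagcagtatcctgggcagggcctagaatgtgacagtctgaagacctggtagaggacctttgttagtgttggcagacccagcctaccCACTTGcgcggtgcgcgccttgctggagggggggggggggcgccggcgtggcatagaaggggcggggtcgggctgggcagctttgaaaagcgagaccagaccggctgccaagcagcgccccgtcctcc
Sycp1, chr3:102936051-102936350, minus strand: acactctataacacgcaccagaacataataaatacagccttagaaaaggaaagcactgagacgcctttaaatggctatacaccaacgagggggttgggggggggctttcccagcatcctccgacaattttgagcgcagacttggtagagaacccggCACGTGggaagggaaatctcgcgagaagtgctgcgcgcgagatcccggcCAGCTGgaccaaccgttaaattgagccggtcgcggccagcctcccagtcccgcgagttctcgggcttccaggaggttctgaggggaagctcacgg
Stag3, chr5:138280259-138280558, plus strand: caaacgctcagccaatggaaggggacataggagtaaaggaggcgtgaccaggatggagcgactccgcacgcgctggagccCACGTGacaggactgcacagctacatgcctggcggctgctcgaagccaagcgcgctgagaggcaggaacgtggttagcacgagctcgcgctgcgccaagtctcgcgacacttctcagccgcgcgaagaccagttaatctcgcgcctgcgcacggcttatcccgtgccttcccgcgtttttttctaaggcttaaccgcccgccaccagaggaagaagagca
Taf7l, chrX:134476441-134476740, minus strand: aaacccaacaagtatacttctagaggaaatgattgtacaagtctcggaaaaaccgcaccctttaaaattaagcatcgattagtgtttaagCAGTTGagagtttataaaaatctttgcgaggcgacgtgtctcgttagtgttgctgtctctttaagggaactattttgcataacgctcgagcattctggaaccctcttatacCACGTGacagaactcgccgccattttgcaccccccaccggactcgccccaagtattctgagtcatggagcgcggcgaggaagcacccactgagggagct

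Searched on both strands, an E-box occurred 2 times in the window of Padi6, 4 times in that of Zp3 and 1 time in that of Ooep. It is a common sequence, present in 64.1% of the 11648 windows found for genes tested and in 72.15% of all 27025 windows available. Of the egg coat, oocyte secreted and maternal store genes described below, 39 of 54 tested had a window and 35 of these held an E-box (89.7%). The E-box share was 75.4% in the meiosis and piRNA lists, 73.0% in genes higher by at least 1 and 68.9% in genes lower by at least 1. The TAATTG site of the homeodomain factor NOBOX was in 6 of those 39 windows (15.4%), those of Padi6 and Ooep among them. It was in 4.86% of the windows of all genes tested and in 8.15% of all 27025 windows. Among the genes of the meiosis and piRNA lists, 61 of 76 tested had a window. In these the E-box variant CACGTG, which is also counted as an E-box above, was found in 31.1%, against 9.83% for all genes tested, and the E2F site TTCCCGC in 24.6%, against 8.42%. The windows of Sycp1, Stag3 and Taf7l each held 1 CACGTG, so they are not typical of these lists. The window of Zp3 also held 1, and the E2F site was in that of Stag3. The LHX8 site and the TATA box were searched too. In the 39 oocyte windows they were in 30.8% and 17.95%, against 14.65% and 7.38% for all genes tested. CACGTG was in 10.3% of those 39 and the E2F site in 2.56%. In the meiosis and piRNA windows the LHX8 site was in 22.95%, the TATA box in 8.2% and the NOBOX site in 6.56%. These are shares of letter matches, and binding was not measured.

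The genes of the synaptonemal complex and the chromosome axis fell almost as a set. Of 15 tested, 14 fell and 1 rose, with a median difference of -2.22 beside -0.03 over all genes, and their FPKM summed to 169.6 and 182 at P3 against 631 and 544 at E17. Sycp1, the transverse filament that zips the homologues together (chromosome 3, 102818499 to 102936100), was at 4.49 and 4.97 FPKM at P3, against 85.0 and 84.3 FPKM at E17 (difference -3.90 ± 0.138 SE, limma adjusted p = 1.26e-10). Syce3, of the central element (chromosome 15, 89390174 to 89410503), was at 0.477 and 0.430 FPKM at P3 and at 30.3 and 28.9 FPKM at E17 (difference -4.40 ± 0.163, adjusted p = 1.78e-10). In both genes the libraries of an age lay close together and far from those of the other. The axis protein gene Hormad1 was at 3.59 and 3.95 FPKM at P3 and 44.8 and 40.1 at E17 (difference -3.19). 22.9% of its 50-base words also occur in other transcripts, so part of its level is uncertain.

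The list went down unevenly. Smc1b and Stag3, meiotic subunits of cohesin, the ring that holds sister chromatids, differed by -1.45 and -2.22, and the other cohesin subunits Rec8 and Rad21l by -2.15 and -3.02. Smc1b was still at 27.9 and 32.8 FPKM at P3, against 85.0 and 83.6 at E17, whereas Rad21l was at 0.486 and 0.539 FPKM at P3, against 11.8 and 10.8 at E17. Sycp3, of the lateral element, kept 65.4 and 64.1 FPKM at P3 beside 212.2 and 153.5 FPKM at E17 (difference -1.46), but 43% of its words occur in other transcripts. The member that rose was Sycp2l, a paralogue of Sycp2 found at oocyte centromeres. It was at 28.6 and 33.4 FPKM at P3, against 1.88 and 1.87 FPKM at E17 (difference 3.47, adjusted p = 1.42e-08), while Sycp2 itself was at 2.70 and 2.61 at P3 and 15.1 and 17.3 at E17 (difference -2.23).

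Of 25 genes of meiotic recombination tested, 15 fell, none rose and 10 did not pass, with a median of -0.84. Spo11, the nuclease that makes the breaks, was at 0.0899 and 0.0901 FPKM at P3, against 3.07 and 3.14 FPKM at E17 (difference -1.91), and Mei1, also needed for break formation, at 0.0850 and 0.142 FPKM at P3 and 3.98 and 3.32 at E17 (difference -2.06). Meiob, which binds single-stranded DNA at the breaks, was at 1.08 and 1.12 FPKM at P3 and 16.1 and 13.8 at E17 (difference -2.92). Hfm1 and Ccnb1ip1, which act on crossovers, differed by -3.04 and -2.43. The strand exchange protein gene Dmc1 fell less, to 2.35 and 1.63 FPKM at P3, against 6.84 and 8.20 at E17 (difference -1.52). Spata22 had the largest difference of the list, -3.39, but 98.5% of its words lie in other transcripts, so its level cannot be assigned to it alone.

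Among the recombination genes that did not pass was Brca2, which acts in break repair in mitotic cells too. It was at 2.61 and 4.17 FPKM at P3 and 3.18 and 3.93 at E17. Prdm9, the methyltransferase that places the hotspots, also did not pass, at 3.02 and 2.73 FPKM at P3 and 3.18 and 3.65 at E17. The P3 and E17 libraries of Brca2 overlapped and those of Prdm9 did not, though by a small margin. Of 6 genes that attach telomeres to the nuclear envelope and move them, 4 fell and 1 rose, and 3 to 4 were called when each library was left out, 3 without P3 replicate 2. Ccdc79, the current Terb1, fell to 2.00 and 2.28 FPKM at P3, against 6.90 and 6.49 at E17.

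By the naming rule the largest fall beside that of a globin was that of Taf7l, a germ cell paralogue of a subunit of the general factor TFIID (chromosome X, 134460118 to 134476490). It was at 1.03 and 1.12 FPKM at P3, against 141.5 and 127.1 FPKM at E17 (difference -6.03 ± 0.091, limma adjusted p = 8.78e-15), and at 73.3 and 66.8 FPKM at P0. Of 12 genes of meiotic entry and germ cell RNA control, 7 fell, 1 rose and 4 did not pass. Gm4969, the current Meiosin, which starts the meiotic programme with STRA8, was at 3.52 and 3.59 FPKM at P3, against 23.1 and 19.8 FPKM at E17 (difference -2.30). Gm1564, the current Meioc, which prolongs it, was at 0.118 and 0.0875 FPKM at P3 and 4.19 and 6.01 at E17 (difference -2.45). Dazl, a translation regulator of germ cells, fell to 24.3 and 28.4 FPKM at P3, against 108 and 93.7 at E17 (difference -1.89). Stra8, the retinoic acid target that opens meiosis, was near 0 at both ages and did not pass. Dppa3, which protects maternal chromatin and belongs also to the maternal store, rose to 296 and 318 FPKM, against 100.4 and 68.2 at E17 (difference 1.88).

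The piRNA pathway silences transposons in germ cells through PIWI proteins and the granules in which they are loaded. Of 18 members tested, 12 fell, 2 rose and 4 did not pass, with a median of -0.82. Mov10l1, the helicase that starts piRNA processing, was at 7.93 and 8.85 FPKM at P3, against 49.4 and 47.8 FPKM at E17 (difference -2.40, adjusted p = 2.01e-08), and Fkbp6, a co-chaperone of the pathway, at 11.6 and 11.3 FPKM at P3 and 58.5 and 47.2 at E17 (difference -2.11). The granule genes Tdrd9 and Rnf17 differed by -1.70 and -1.55. Gtsf1, a cofactor of PIWI cleavage, moved the other way, with 21.03 and 25.3 FPKM at P3 and 8.07 and 6.31 at E17 (difference 1.56), as did Tdrd5, with 13.3 and 14.8 at P3 and 7.30 and 6.41 at E17. Tdrd1 was called neither way, at 28.0 and 34.5 FPKM at P3 and 33.1 and 30.0 at E17, and its libraries overlapped. Of 6 genes of the intercellular bridge, 1 fell, Rbm44, a share near the 16.8% lower among all genes tested. The bridge protein gene Tex14 was at 6.38 and 6.98 FPKM at P3 and 7.11 and 7.22 at E17 without passing.

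**Figure D2:**
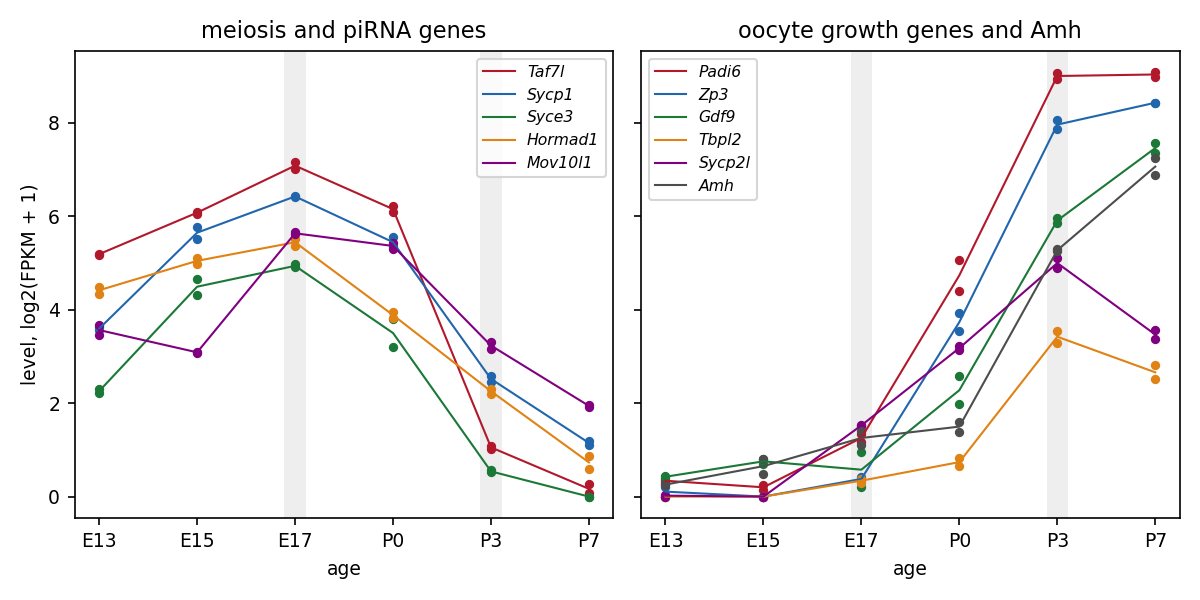
Levels as log2(FPKM + 1) at E13, E15, E17, P0, P3 and P7, with 1 point per library and a line through the means of 2 libraries, for meiosis and piRNA genes (left) and for oocyte growth genes and Amh (right). Grey bands mark the 2 ages compared. The genes on the left are lower at P3 than at E17 and those on the right higher, and at P0 each lies between.

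The egg coat genes turned on over the same interval. Of 6 tested genes of the coat and of secreted oocyte proteins, 5 rose and none fell, with a median of 3.81. Zp3 (chromosome 5, 135980099 to 135988624) was at 232 and 264 FPKM at P3, against 0.271 and 0.329 FPKM at E17 (difference 7.58 ± 0.419 SE, limma adjusted p = 7.36e-09). Zp2 (chromosome 7, 120126772 to 120145291) was at 452 and 525 FPKM at P3 and at 4.74 and 3.66 at E17 (difference 6.56), and Zp1 at 61.1 and 64.8 FPKM at P3 and 0.156 and 0.163 at E17 (difference 5.79). In all 3 zona genes the P3 libraries lay near each other, and Zp2 stood above 1 FPKM at E17 while Zp1 and Zp3 did not. Oosp1 and Oosp2, secreted oocyte proteins, were listed at 0 in both E17 libraries and were at 1.09 to 2.88 FPKM at P3. Oosp2 was not called without P3 replicate 2 (adjusted p = 0.129) or without either E17 replicate (adjusted p = 0.0629 and 0.0569).

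All 4 tested growth factors of the oocyte rose. Gdf9, which acts on granulosa cells (chromosome 11, 53431023 to 53437904), was at 56.7 and 61.3 FPKM at P3, against 0.936 and 0.147 at E17 (difference 5.33, adjusted p = 8.92e-08). Its partner Bmp15 was at 3.17 and 3.83 FPKM at P3 and at 0.0725 and 0.1003 at E17 (difference 2.05). Rspo2, an agonist of WNT signalling, and Bmp6 rose less, by 1.63 and 1.07, and were already at 1.80 to 2.02 and 5.70 to 6.68 FPKM at E17. Fgf8 was listed at 0 at E17 and was below the limit for testing.

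The maternal store holds the transcripts and proteins that the oocyte lays down for the embryo. Of 44 members tested, 37 rose, 1 fell and 6 did not pass, with a median of 2.12, and 35 to 36 were called when each library was left out. Padi6, a structural protein of the cytoplasmic lattices (chromosome 4, 140727355 to 140742643), had the largest increase of all genes by the naming rule. It was at 484 and 536 FPKM at P3, against 1.53 and 1.25 FPKM at E17 (difference 7.74 ± 0.398, adjusted p = 3.54e-09). Nlrp14, of the same gene family as the lattice component Nlrp5, was at 187 and 209 FPKM at P3 and 0.307 and 0.239 at E17 (difference 7.29). Npm2, a histone chaperone of the egg, was at 99.0 and 106 FPKM at P3 and 1.19 and 1.46 at E17 (difference 5.48).

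Members of the subcortical maternal complex, which sits under the oocyte membrane, differed in how far they rose. Ooep was at 82.8 and 91.7 FPKM at P3, against 1.87 and 1.72 at E17 (difference 4.98), and Nlrp5 at 64.4 and 93.9 at P3 and 3.65 and 3.81 at E17 (difference 4.06). Tle6 rose less, to 30.0 and 36.6 FPKM, against 12.04 and 9.69 at E17 (difference 1.53). Of the rodent-expanded families, Khdc1b was at 49.1 and 53.0 FPKM at P3 and 0.595 and 0.206 at E17, and Oas1d, an inactive member of the oligoadenylate synthetase family, at 19.6 and 24.8 FPKM at P3 while listed at 0 in both E17 libraries. Fbxw24, an F-box gene named by its size of change alone, was at 28.8 and 34.2 FPKM at P3 and 0.248 and 0.258 at E17 (difference 4.69). Dnmt1, the maintenance DNA methyltransferase, was at 71.8 and 73.2 FPKM at P3 and 34.7 and 41.7 at E17 (difference 0.91).

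The member of the store that fell was Ccnb3, a cyclin of meiosis on chromosome X. It was at 0.182 and 0.481 FPKM at P3, against 16.5 and 22.3 FPKM at E17 (difference -3.93, adjusted p = 1.83e-10), and its libraries lay apart by a wide gap. Cpeb1 and Ybx2, which hold maternal messages in an untranslated state, did not pass. Cpeb1 was at 15.1 and 16.4 FPKM at P3 and 25.1 and 18.4 at E17, and Ybx2 at 39.8 and 46.8 at P3 and 53.9 and 41.5 at E17.

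The oocyte transcription factors did not move together. Of 13 tested, 4 rose, 4 fell and 5 did not pass, beside 14.6% higher and 16.8% lower among all genes tested. Tbpl2, the oocyte's paralogue of the TATA-binding protein, was at 8.78 and 10.7 FPKM at P3, against 0.306 and 0.227 FPKM at E17 (difference 3.08, adjusted p = 7.30e-10). Trp63, which monitors DNA damage in oocytes, was at 6.001 and 7.43 FPKM at P3 and 1.69 and 1.23 at E17 (difference 1.65), and Nobox at 61.2 and 72.3 FPKM at P3 and 24.7 and 18.5 at E17 (difference 1.59). Taf4b, a TFIID subunit, fell to 5.26 and 5.82 FPKM, against 15.6 and 14.3 at E17 (difference -1.29). Lhx8 was at 8.11 and 7.80 FPKM at P3 and 19.3 and 14.3 at E17 (difference -0.98), and Sohlh2 at 7.72 and 7.88 at P3 and 15.3 and 12.9 at E17 (difference -0.77). Figla was at 61.7 and 68.2 FPKM at P3 and 93.4 and 67.8 at E17, and Sohlh1 at 61.0 and 66.6 at P3 and 100.4 and 70.6 at E17. Neither passed, and in both the E17 libraries differed more from each other than the P3 libraries did.

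**Figure D3:**
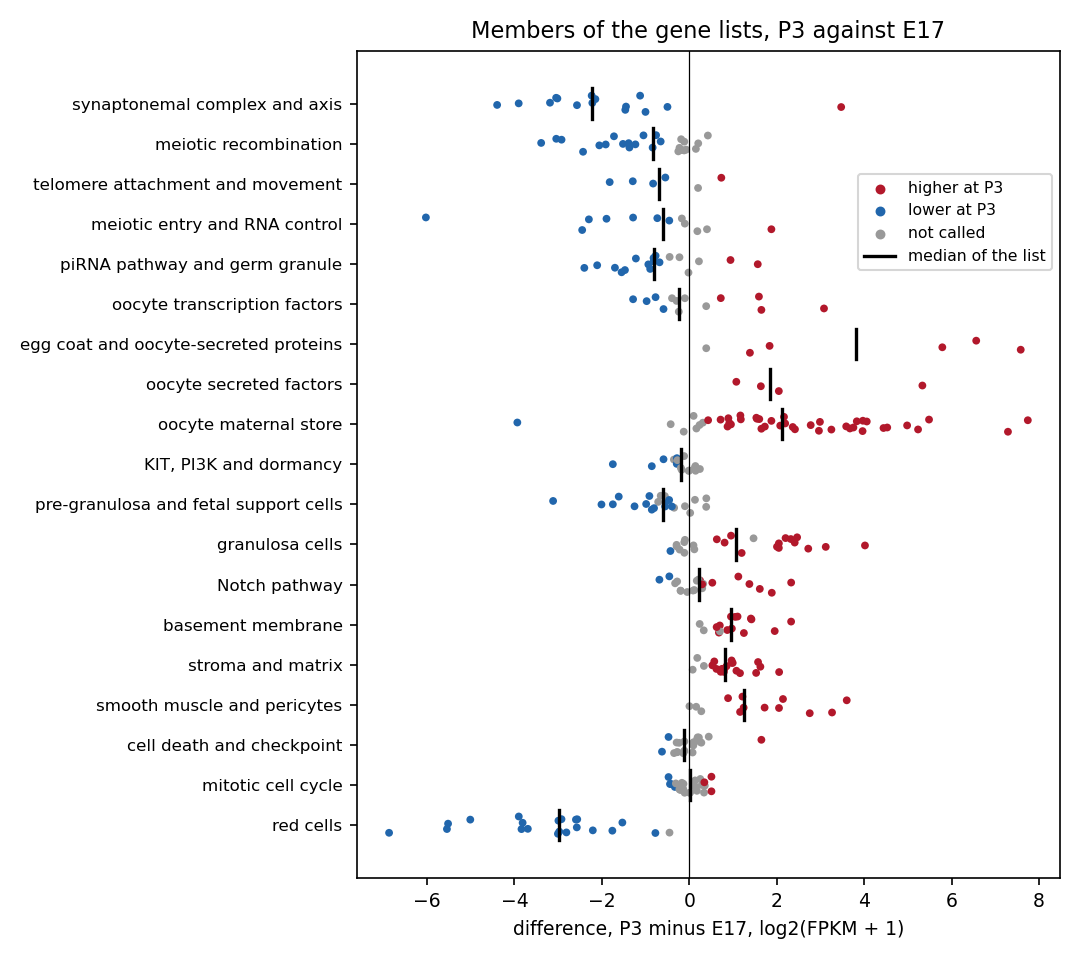
Difference between P3 and E17 of each tested member of 19 gene lists, on the log2(FPKM + 1) scale. A point is a gene, coloured by whether it was called higher (red), called lower (blue) or not called (grey) at P3, and the black bar is the median of the list. The synaptonemal complex has its median at -2.22 with 1 member far to the right, the maternal store has its median at 2.12 with 1 member far to the left, and the red cell median is -2.98.

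Several genes best known from pluripotent cells and early germ cells were higher at P3. Of 16 tested, 6 rose, 2 fell and 8 did not pass, beside 14.6% higher and 16.8% lower among all genes tested. Pou5f1 was at 14.1 and 16.2 FPKM at P3, against 0.441 and 0.372 at E17 (difference 3.52), and Lin28a at 6.37 and 6.98 at P3 and 0.0658 and 0.444 at E17 (difference 2.63). Its paralogue Lin28b, which like it binds let-7 precursors, fell to 0.549 and 0.815 FPKM, against 4.56 and 5.75 at E17 (difference -1.87). Dppa5a was at 79.2 and 95.2 FPKM at P3 and 7.28 and 5.46 at E17, with 38.6% of its words in other transcripts. Sox2 and Nanog stayed under 0.3 FPKM in all 4 libraries.

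The signalling that keeps primordial oocytes dormant runs from KIT ligand, made by granulosa cells, through PI3K and AKT in the oocyte to the factor FOXO3. Of 16 members tested, none rose, 5 fell and 11 did not pass, a share of calls no larger than the 31.3% of all genes. Without P3 replicate 1, and likewise without E17 replicate 1, 3 were called. Kitl was at 29.7 and 32.1 FPKM at P3, against 106 and 106 FPKM at E17 (difference -1.75, adjusted p = 3.52e-06), a fall seen in both libraries while the receptor gene Kit did not pass. Cdkn1b, a cell cycle inhibitor that restrains follicle activation, was at 27.5 and 26.9 FPKM at P3 and 42.7 and 59.0 at E17 (difference -0.86, not called with only the 4 libraries in the fit, adjusted p = 0.0512), and Foxo3 at 19.02 and 22.4 at P3 and 32.2 and 30.98 at E17 (difference -0.59). Akt1 was at 49.7 and 48.9 FPKM at P3 and 53.5 and 45.6 at E17 and did not pass.

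Among the supporting cells, genes of the pre-granulosa stage were lower and genes of growing granulosa cells higher. Of 22 pre-granulosa and fetal support genes, 13 fell, none rose and 9 did not pass, with a median of -0.61. This count was 7 to 11 when each library was left out, 7 without P3 replicate 1 and 7 without E17 replicate 1. Lgr5, a receptor gene of the WNT pathway in cortical pre-granulosa cells, was at 4.80 and 4.66 FPKM at P3, against 13.04 and 12.3 at E17 (difference -1.25, adjusted p = 0.00456). Msx1, a homeobox gene, was at 0.881 and 1.04 FPKM at P3 and 6.78 and 7.02 at E17 (difference -2.01), and Bmp2 at 2.87 and 2.26 at P3 and 9.89 and 9.87 at E17 (difference -1.61). Gng13 was at 5.93 and 8.66 FPKM at P3 and 78.0 and 62.6 at E17, with 43% of its words in other transcripts. Foxl2, which defines the lineage at both ages, was at 70.7 and 84.1 FPKM at P3 and 67.9 and 50.8 at E17 and did not pass.

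Of 24 granulosa genes, 14 rose, 1 fell and 9 did not pass, with a median of 1.07. Amh, the hormone of small growing follicles (difference 4.02, adjusted p = 1.50e-08), was at 37.0 and 38.1 FPKM at P3, against 1.64 and 1.15 FPKM at E17. Slc18a2, a monoamine transporter, was at 83.6 and 87.4 FPKM at P3 and 9.58 and 8.38 at E17 (difference 3.12), and Hsd17b1, an oestradiol-forming enzyme, at 13.1 and 9.95 at P3 and 1.27 and 0.573 at E17 (difference 2.72). Inha, the inhibin alpha subunit, was at 220 and 266 FPKM at P3 and 47.6 and 38.8 at E17 (difference 2.46). Fshr, the receptor gene for FSH, was at 0.824 and 1.20 FPKM at P3 and 0.0711 and 0 at E17, and the aromatase gene Cyp19a1 at 2.33 and 3.33 at P3 and 0.218 and 0.550 at E17 without passing, though it passed under 3 alternatives (adjusted p = 0.0134 with a pseudocount of 0.1 FPKM). Amhr2, the receptor gene for AMH, was at 56.0 and 67.9 FPKM at P3 and 80.6 and 64.5 at E17 and did not pass either.

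Dhh, a Hedgehog ligand that granulosa cells send to theca precursors, was at 4.66 and 5.96 FPKM at P3 and 0.375 and 0.357 at E17 (difference 2.20), with 22.2% of its words in other transcripts. Its receptor gene Ptch1 and its effector Gli1, both also targets of the pathway, differed by 1.48 and 1.61, with Gli1 at 24.2 and 23.7 FPKM at P3 and 7.24 and 7.08 at E17. Of 17 genes of theca and steroid synthesis tested, 6 rose and none fell, beside 14.6% higher and 16.8% lower among all genes tested. Fewer were called when any library was left out. Cyp17a1, needed for androgens, was at 0.967 and 0.712 FPKM at P3 and 2.51 and 1.10 at E17, and Cyp11a1, which starts steroid synthesis, at 1.03 and 0.862 at P3 and 0.302 and 0.288 at E17. Neither passed, while Cyp11a1 passed under 3 alternatives and Cyp17a1 under 2. Of 8 steroid receptor genes 4 rose and none fell, beside the same shares of all genes tested. Esr2, the oestrogen receptor of granulosa cells, was at 11.3 and 11.6 FPKM at P3 and 1.35 and 1.33 at E17 (difference 2.41, adjusted p = 6.32e-09).

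**Figure D4:**
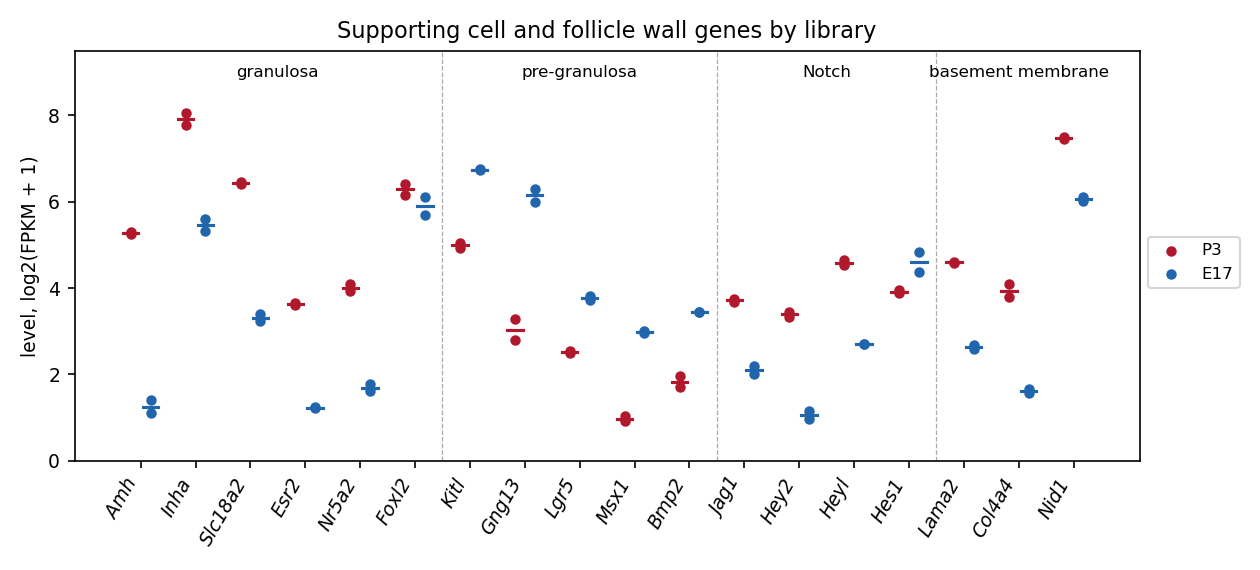
Levels of supporting cell and follicle wall genes as log2(FPKM + 1), with a point per library and a bar at the mean of 2 libraries, P3 in red left of E17 in blue. Amh, Inha, Slc18a2, Esr2 and Nr5a2 lie higher at P3 and Foxl2 lies close at both ages. Kitl, Gng13, Lgr5, Msx1 and Bmp2 lie lower at P3, and the Notch target Hes1 lies lower while Jag1, Hey2 and Heyl lie higher.

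Notch signalling passes between germ cells, which carry the ligand JAG1, and pre-granulosa cells, which carry NOTCH2, as cysts break apart. Of 21 members tested, 8 rose, 2 fell and 11 did not pass, beside 14.6% higher and 16.8% lower among all genes tested. Jag1 was at 12.5 and 11.8 FPKM at P3, against 3.05 and 3.57 FPKM at E17 (difference 1.61, adjusted p = 3.42e-08). Notch2 rose by 0.53, to 22.1 and 22.9 FPKM at P3, against 14.8 and 15.9 at E17, and was not called without E17 replicate 1 (adjusted p = 0.0525). The target genes split. Heyl was at 22.2 and 23.9 FPKM at P3 and 5.51 and 5.52 at E17 (difference 1.88), Hey2 at 9.02 and 9.96 at P3 and 1.22 and 0.963 at E17 (difference 2.33), and Hey1 rose by 1.37. Hes1 fell, to 14.6 and 13.7 FPKM at P3, against 27.5 and 19.7 at E17 (difference -0.69, not called with only the 4 libraries in the fit, adjusted p = 0.0799). Rbpj, the DNA-binding partner of all Notch receptors, was at 5.62 and 5.32 FPKM at P3 and 4.98 and 5.21 at E17 and did not pass.

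The basement membrane closes around each follicle as it separates from the cyst. Of 16 genes tested, 13 rose, none fell and 3 did not pass, with a median of 0.96, and their FPKM summed to 999.8 and 995.9 at P3 against 479.5 and 487 at E17. Col4a4 and Col4a3, chains of a collagen IV network, differed by 2.33 and 1.42, with Col4a4 at 12.8 and 16.02 FPKM at P3 and 1.96 and 2.14 at E17. Lama2, a laminin chain, was at 23.3 and 23.0 FPKM at P3 and 5.05 and 5.44 at E17 (difference 1.95), and Nid1, which links laminin to collagen IV, at 175 and 179 at P3 and 63.9 and 68.4 at E17 (difference 1.41). Beside a share of 67.1% of all genes tested without overlap in either direction, the P3 libraries lay above the E17 libraries for all 16. Genes of stroma and of smooth muscle rose beside them, and their part in these levels was not tested. Of 20 stroma and matrix genes 17 rose and none fell (median 0.83), and 10 of 13 genes of smooth muscle and pericytes rose, with no fall (median 1.24). Myh11, the smooth muscle myosin, was at 48.0 and 31.2 FPKM at P3 and 4.75 and 5.04 at E17 (difference 2.75), and Dcn, a stromal proteoglycan, at 551 and 400 at P3 and 149 and 167 at E17 (difference 1.57).

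In the junctions that tie oocyte and granulosa cells, 3 of 13 genes rose and 2 fell, beside 14.6% and 16.8% of all genes tested. Fewer were called without E17 replicate 1. Gja4, the oocyte's connexin, was at 22.5 and 24.7 FPKM at P3 and 10.7 and 7.93 at E17 (difference 1.27), while the cadherin gene Cdh1, whose protein holds cyst cells together, was at 3.93 and 4.50 at P3 and 2.55 and 3.33 at E17 and did not pass. Of 24 genes of TGF-beta, activin and BMP signalling, 6 rose and 6 fell, also beside 14.6% and 16.8% of all genes tested. The falls included the BMP target genes Id1, Id2 and Id3. Id1 was at 26.1 and 23.7 FPKM at P3, against 128 and 103 FPKM at E17 (difference -2.16, adjusted p = 4.53e-08), and Id3 at 31.1 and 28.5 at P3 and 83.7 and 69.1 at E17 (difference -1.32). Bmp4 rose, to 4.04 and 4.72 FPKM, against 1.41 and 1.12 at E17 (difference 1.25).

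Of 21 genes of cell death and the DNA damage checkpoint, 1 rose, 2 fell and 18 did not pass. This share of calls was below the 31.3% of all genes tested. The riser was Trp63, given above, and the falls were Bax and Pcna, with Bax not called without E17 replicate 1 (adjusted p = 0.0851). Of 26 mitotic genes, 3 rose, 4 fell and 19 did not pass, also a share of calls below that of all genes tested. Their median difference was 0.01. These 7 calls became 3 without P3 replicate 1, 3 without P3 replicate 2 and 9 without E17 replicate 2. Mki67, a marker of cycling cells, was at 45.4 and 42.0 FPKM at P3 and 30.5 and 81.9 at E17, so that the P3 libraries lay between those of E17. Counts of 4 of 15 called autophagy genes (2 higher, 2 lower) and 2 of 8 called neurotrophin genes (both higher) were below the 31.3% of all genes tested. Without P3 replicate 1 they were 2 and 1, and without E17 replicate 1 they were 2 and 2.

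Red cell genes formed the other large group of falls, and their levels also differed between the libraries of an age. Of 21 tested, 20 fell and none rose (11 called with only the 4 libraries in the fit), with a median of -2.98, and their FPKM summed to 285.2 and 204.4 at P3 against 1612 and 3727 at E17. At P0 the sums were 608.7 and 4374. Slc4a1, the anion exchanger of the red cell membrane, was at 0.720 and 0.482 FPKM at P3, against 33.0 and 162 FPKM at E17 (difference -5.54 ± 1.14, limma adjusted p = 0.00189), and at 2.21 and 148 FPKM at P0. Hemgn, of maturing red cells, differed by -5.01. The alpha globin Hba-a2 was at 0.126 and 0 FPKM at P3 and 90.0 and 167 at E17, with 89.3% of its words in other transcripts. Of the 21 red cell genes, 20 were higher in E17 replicate 2 than in E17 replicate 1, and the liver genes Alb (4.53 and 5.66 FPKM at P3, 1.61 and 11.2 at E17) and Afp (0 and 0.0279 at P3, 0.536 and 4.19 at E17) were also higher in E17 replicate 2. The part of these in the other differences was not tested. Carbonic anhydrase gene Car2 (1.70 and 1.40 FPKM at P3, 29.5 and 100.6 at E17) showed the same spread.

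**Figure D5:**
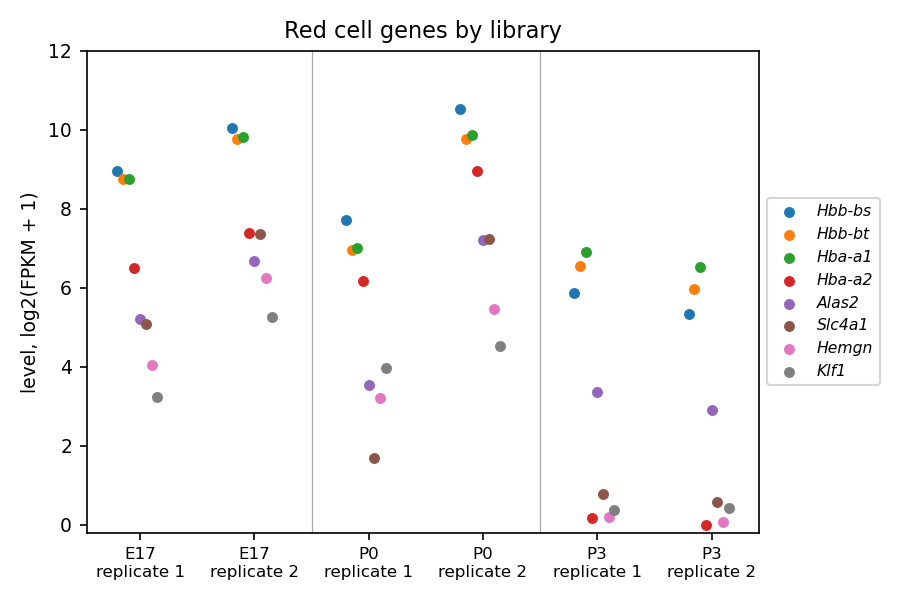
Levels of 8 red cell genes as log2(FPKM + 1) in each library of E17, P0 and P3. Replicate 2 of E17 and replicate 2 of P0 lie above replicate 1 of their age for most genes, and both P3 libraries lie below both E17 libraries for all 8.

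Among the 24 genes with the largest changes, 3 belonged to ribosomal protein families whose copies share sequence. Rpl29 was at 1.09 and 0.714 FPKM at P3, against 76.2 and 66.5 at E17, and Rpl26 at 1.12 and 1.58 at P3, against 65.0 and 74.6 at E17. At P0 both were higher than at E17, with Rpl26 at 111 and 84.2 FPKM. Rpl29 averaged 1.33 FPKM at E13, 1.26 at E15, 0.758 at P7 and 97.4 at P14, so its level jumped between ages with no steady course. The pseudogene Rps2-ps10 was at 105 and 105 FPKM at P3 and 2.12 and 1.75 at E17. The share of their words found in other transcripts was 35.5%, 22.7% and 96.3%, so how reads were divided between copies bears on these levels. Of the remaining genes with the largest falls, Tktl1, a transketolase-like gene on chromosome X, was at 1.86 and 2.88 FPKM at P3 and 53.9 and 49.5 at E17 (difference -3.98, adjusted p = 1.28e-09).

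The P0 libraries show how far levels had moved by birth. A P0 mean between the P3 and E17 means was found for 42.0% of all genes tested. It was found for 83.0% of the genes higher by at least 1 and for 81.9% of those lower by at least 1. Genes picked for a wide gap leave more room for a P0 mean between, so these shares cannot be set against that of all genes. At P0 the genes lower by at least 1 had covered a median share of 0.387 of their difference, and the higher ones 0.284. The median share covered at P0 by called members was 0.296 in the synaptonemal complex, 0.504 in recombination and 0.431 in the piRNA pathway. It was 0.317 in the egg coat list, 0.406 in the oocyte secreted factors, 0.132 in the maternal store and 0.122 in the granulosa list. Padi6 was at 32.5 and 20.1 FPKM at P0 and Amh at 2.04 and 1.62. Genes under 1 FPKM at E17 and at 10 FPKM or more at P3 numbered 29, and those with the reverse pattern 14.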

How the data were processed

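RNA was extracted from whole frozen ovaries of wild-type CD1 mice and sequenced, 2 libraries for each of 11 ages. The values used are FPKM as deposited by the authors in 1 table of 34745 genes. HISAT2, StringTie, edgeR and the build mm10 are listed per the submitters' processing notes, while the series' design text names TopHat, so which aligner made the FPKM is not settled here. The sources used here give neither tool versions nor the treatment of multiply aligned reads. Libraries were grouped by their own labels.

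The filter required 1 FPKM or more in 2 or more of the 22 libraries. On the log2(FPKM + 1) values, limma 3.58.1 (R 4.3.3, intensity trend) fitted a mean for each of the 11 ages to the 22 libraries together, leaving 11 residual degrees of freedom, and gave the contrast P3 minus E17, with Benjamini-Hochberg adjustment over all 16117 genes and a call at 0.05. The script was tested on simulated data. No read counts were used. Depth was estimated from FPKM under 0.2 in genes with a single transcript, whose values step in units of 1 read (94.5% to 97.1% of them whole within 0.02 reads).

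The 36 gene lists hold 591 entries, of which 589 matched the table, by symbol or by an older one. The comparison, its lists and the naming rule were chosen with earlier results of these data known. Named were the 12 largest increases and 12 largest decreases among called genes with P3 libraries all above or all below the E17 ones and a mean of 10 FPKM or more at either age, clone names and mitochondrial genes apart. Added were the largest called changes of a list, up to 4, and members its role turns on. Other members are given for their values only, and lists given as counts name none. Positions are from GENCODE vM21 (GRCm38), and promoter windows from RefSeq (GRCm38.p6). Words of 50 bases shared between transcripts gave the share of a gene that cannot be assigned to it alone. The 14 alternatives covered pseudocount, filter, scaling, libraries in the fit, variance trend, a replicate block and leaving out each library.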

Additional observations from a re-analysis of the deposited data

How the results depend on the processing

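With the alternatives run, each of the 24 genes taken by size of change kept its direction and its call, and none of the values of the 185 genes followed by name changed sign in a called result. Leaving out each library in turn gave 1618 to 1899 higher genes (2350 with all) and 1689 to 2277 lower genes (2701 with all), the lowest without P3 replicate 1. It gave 1232 to 1301 genes differing by 1 or more, against 1277 with all. Called list members numbered 7 to 11 in the pre-granulosa list (13 with all), 16 to 21 in the red cell list, 12 to 15 in the granulosa list, 12 to 16 in the stroma list and 35 to 36 in the maternal store. With a pseudocount of 0.1 FPKM, 2175 genes differed by 1 or more, since low genes then span a wider scale. With only the 4 P3 and E17 libraries in the fit, 1609 genes were lower and 11 red cell genes were called, and this fit has fewer residual degrees of freedom. The share of higher genes among the calls was 46.5% with FPKM as deposited, and 53.6% after median-of-ratios scaling, where the median difference over all genes was 0.004.

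The replicate block gave 2295 higher and 2658 lower genes and 1283 differing by 1 or more. Same-numbered E17 and P3 libraries had deviations correlated at r = -0.069, and 55 pairs of ages had r from -0.129 to 0.265. No pairing by number showed for E17 and P3. These values cannot exclude one, since each age gives only 1 difference between its libraries. Of the genes named in the report, Oosp2, Cdkn1b, Notch2, Hes1, Bax and Pcna lost their call under 1 or more alternatives, while Stra8, Cyp19a1, Cyp11a1, Cyp17a1, Csf1r, Foxl2, Cpeb1, Cdh1, Mki67 and Afp, not called with all, passed under 1 or more. Genes under about 1 FPKM rest on few reads, and their differences are bounded by the pseudocount. With 2 libraries an age, differences as small as those of the cell death and mitotic lists could go uncalled, and a value missing the threshold does not show equal levels.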

Other observations

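Large falls were unevenly spread over the chromosomes, a pattern noticed after the values were seen and given without a test. Of 616 genes tested on chromosome X, 81 were lower at P3 by at least 1 (13.2%), against 465 of 15401 on the autosomes (3.02%). Genes higher by at least 1 made up 2.92% on chromosome X and 4.57% on the autosomes. Differences of at least -3 were found for 12 X-linked and 32 autosomal genes. Beside Taf7l, Tktl1 and Ccnb3, the X-linked falls included genes of the germ line. Nxf2, an RNA export factor, was at 0.533 and 0.751 FPKM at P3, against 12.2 and 12.5 FPKM at E17 (difference -3.03, limma adjusted p = 1.44e-10). Tex16 was at 0.187 and 0.157 FPKM at P3 and 8.17 and 9.75 at E17 (difference -3.08), and Rhox13, of a homeobox cluster, at 0.301 and 0.0679 at P3 and 9.96 and 6.05 at E17 (difference -2.90). Taf9b, a second X-linked gene of the TFIID family beside Taf7l, was at 3.84 and 3.36 FPKM at P3 and 21.1 and 20.7 at E17 (difference -2.25). Of the 81, 21 have clone names, and X-linked families with near-identical copies share reads.

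Genes of antigen presentation and complement were mostly higher at P3 than at E17, with 15 of 18 tested called higher and none lower (median 0.92). The count was 8 without P3 replicate 1, 8 without E17 replicate 1, and 11 to 15 without either of the others. B2m, the light chain of MHC class I, was at 179.9 and 178 FPKM at P3, against 82.7 and 58.9 FPKM at E17 (difference 1.35), and C3, the central complement component, at 7.54 and 4.17 at P3 and 0.872 and 0.757 at E17 (difference 1.87). In the macrophage list 3 of 17 were called higher, beside 14.6% of all genes tested. Few or none were called without P3 replicate 1 or without either E17 replicate. Without P3 replicate 2, slightly more were called than with all libraries. The receptor gene Csf1r was at 6.04 and 4.64 FPKM at P3 and 3.35 and 3.55 at E17 and did not pass, but was called higher under 7 of the 14 alternatives.

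Imprinted growth genes fell in 7 of 15 cases and rose in 1, beside 16.8% lower and 14.6% higher among all genes tested. Fewer were called without P3 replicate 2 or without either E17 replicate. H19 was at 74.4 and 56.6 FPKM at P3, against 225 and 251 FPKM at E17 (difference -1.86, limma adjusted p = 6.35e-05), and Peg10 at 15.2 and 14.7 at P3 and 54.0 and 52.3 at E17 (difference -1.76). Plagl1, a factor of the same network, rose to 47.5 and 43.8 FPKM, against 17.6 and 19.1 at E17 (difference 1.27). Of 17 glucocorticoid and immediate early genes 4 rose and 3 fell, beside 14.6% higher and 16.8% lower among all genes tested. Far fewer were called when any library was left out. Tsc22d3, a glucocorticoid target, was at 4.82 and 4.40 FPKM at P3 and 12.03 and 10.4 at E17 (difference -1.12). In the endothelial list 4 of 15 rose and 1 fell, against 31.3% called among all genes, and 2 were called in all without E17 replicate 1. The lists that follow stand beside 14.6% higher and 16.8% lower among all genes tested. In the surface epithelium list 2 of 13 rose, and fewer were called without either E17 replicate. In the mesonephros and oviduct list 3 of 11 fell, and 0 were called without E17 replicate 1. In the fat list 1 of 10 rose, with 1 called without P3 replicate 2 and 0 without each of the other libraries.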
